A study of Mus musculus with 3 samples.

Results

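The cells described here were small intestinal cells with a high level of the crypt base gene Olfm4. Their sums of chosen genes of DNA synthesis and mitosis lay below set cutoffs, although other genes of DNA synthesis were not low, as given below. The cells were chosen by 4 cutoffs on the UMIs per 10000 UMIs of a cell. A UMI (unique molecular identifier) stands for 1 captured RNA molecule. Olfm4 had to reach 20, the sum of 8 mitosis genes (Ube2c, Cdc20, Ccnb1, Birc5, Cenpa, Cdca3, Top2a and Cenpf) had to be below 5, the sum of 6 S phase genes (Pcna, Mcm6, Hells, Uhrf1, Rrm2 and Lig1) below 10, and the sum of the alpha-defensin genes, which mark Paneth cells, below 1500. These cutoffs took 420 of 12653 cells (3.32%), called stem cells outside mitosis below. A cell with Olfm4 at 20 or more was called Olfm4-high whatever its cycle genes.

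Single-cell RNA sequencing was done on the small intestine of male mice of the outbred ICR strain, aged 3 weeks at the start of treatment. The AOS 0 mice had no busulfan and were gavaged with water, the B + A 0 mice had a single injection of busulfan at 40 mg/kg and the same water, and the B + A 10 mice had busulfan at 40 mg/kg and alginate oligosaccharides (AOS) at 10 mg/kg, with daily gavage for 2 weeks in each group. One label field of the busulfan libraries, the source name, is out of step with the rest (it calls the B + A 0 library AOS10 and the B + A 10 library B+A0), and the groups used here follow the titles, the treatments and the column prefixes of the deposited table, which match each other. Busulfan is an alkylating anticancer drug that links DNA strands and harms dividing cells. The cells of 6 mice were pooled into 1 library per group, so that group, pool of mice and library cannot be told apart, no test was possible, and every interval given below is a 95% interval that covers counting error only. Where 3 values follow each other without a library name, they are in the order AOS 0, then B + A 0, then B + A 10.

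Stem cells at the base of the crypt renew the lining of the small intestine throughout life. They lie between Paneth cells, depend on Wnt signals and on Notch signals, and give rise to dividing progenitors that become enterocytes or secretory cells. Lgr5, a receptor for the R-spondins that strengthen Wnt signals, and Ascl2, a transcription factor under Wnt control, are the classical markers of these cells, and Olfm4 encodes a secreted glycoprotein that is abundant in them.

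Olfm4 lies on the plus strand of chromosome 14 (GRCm38, chr14:79984081-80023139), Lgr5 on the minus strand of chromosome 10 (chr10:115450311-115587780) and Ascl2 on the minus strand of chromosome 7 (chr7:142966829-142969264). These spans are from GENCODE, in which Olfm4 begins farther upstream than in RefSeq, so that the RefSeq start lies inside the GENCODE span. The sequence upstream of the RefSeq start is shown because this gene selected the cells and because its transcription is known to respond to Notch, whose DNA-binding partner RBPJ recognises the core TGGGAA. These are the 250 bases before the RefSeq start (GRCm38.p6, chr14:80000052-80000301, plus strand), and the capitals mark the only match to TGGGAA or its reverse complement TTCCCA, 12 to 7 bases before the start.
Olfm4 upstream sequence: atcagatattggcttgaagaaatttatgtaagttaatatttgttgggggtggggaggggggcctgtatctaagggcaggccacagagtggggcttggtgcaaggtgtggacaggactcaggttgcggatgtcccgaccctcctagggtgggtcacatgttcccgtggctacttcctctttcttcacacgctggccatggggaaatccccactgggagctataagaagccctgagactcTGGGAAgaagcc
A match on either strand was present in 21.6% of 32851 upstream sequences of the same length, so the match is common and is given as a description only.

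The stem cells outside mitosis held 837293, 701772 and 688978 UMIs. Their depth differed between libraries, with medians of 6027.5, 5733 and 3154.5 UMIs per cell. At these medians 1 UMI counted as 1.66 UMIs per 10000 in AOS 0 and 3.17 in B + A 10, so the cutoffs on the cycle sums do not act alike in the libraries. Whether they let more or fewer cycling cells pass in B + A 10 was not tested. The shares below are also given after thinning each cell to 2000 UMIs. No barcode occurred in all libraries and 82 occurred in 2 of them, 8 of which belonged to stem cells outside mitosis. Among the cells with the top 5% of doublet scores in their library there were 4 of 130, 5 of 104 and 18 of 186 stem cells outside mitosis.

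The values that chose the cells are given as a description. Olfm4 ran from 20.3 to 168 UMIs per 10000 with a median of 49.8, and the nearest cell outside the cutoff had 19.98. The mitosis sum was 0 in 184 of the cells and its values nearest to the cutoff were 4.98 inside and 5.06 outside. The S phase sum was 0 in 51 cells, with 9.96 inside and 10.1 outside. The nearest alpha-defensin sums were 1126 inside and 1781 outside, and the medians were 28.0, 48.1 and 38.0. In the reference enterocytes, the 20% of cells of each library with the highest enterocyte marker sum and with no stem cell outside mitosis among them, the alpha-defensin medians were close to these, at 22.7, 52.5 and 36.6.

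Whether busulfan or AOS went with a change in the size of this pool was asked first. The stem cells outside mitosis made up 3.17% of the AOS 0 cells (130 of 4106, exact binomial interval 2.65 to 3.75), 3.26% of the B + A 0 cells (104 of 3195, 2.67 to 3.93) and 3.48% of the B + A 10 cells (186 of 5352, 3.0 to 4.0). The differences were 0.089 percentage points for B + A 0 minus AOS 0 (Newcombe interval −0.72 to 0.92), 0.22 for B + A 10 minus B + A 0 (−0.59 to 0.99) and 0.31 for B + A 10 minus AOS 0 (−0.43 to 1.03), so no difference was detectable at this number of cells. Thinned to 2000 UMIs before the cutoffs were applied, the shares were 2.12%, 2.10% and 2.32%.

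Within the Olfm4-high cells the balance between the classes varied more. There were 506, 440 and 639 Olfm4-high cells, and the stem cells outside mitosis were 25.7%, 23.6% and 29.1% of them. The share in B + A 10 was 5.47 points above that in B + A 0 (0.085 to 10.7), but the difference was 4.09 points with an interval that includes 0 (−0.31 to 8.31) after thinning. Cells with a mitosis sum at or above the cutoff were 60.7%, 62.5% and 53.7% of the Olfm4-high cells. The last share is from the library of lowest depth, and all these shares are set by the values that chose the cells.

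**Figure D1:**
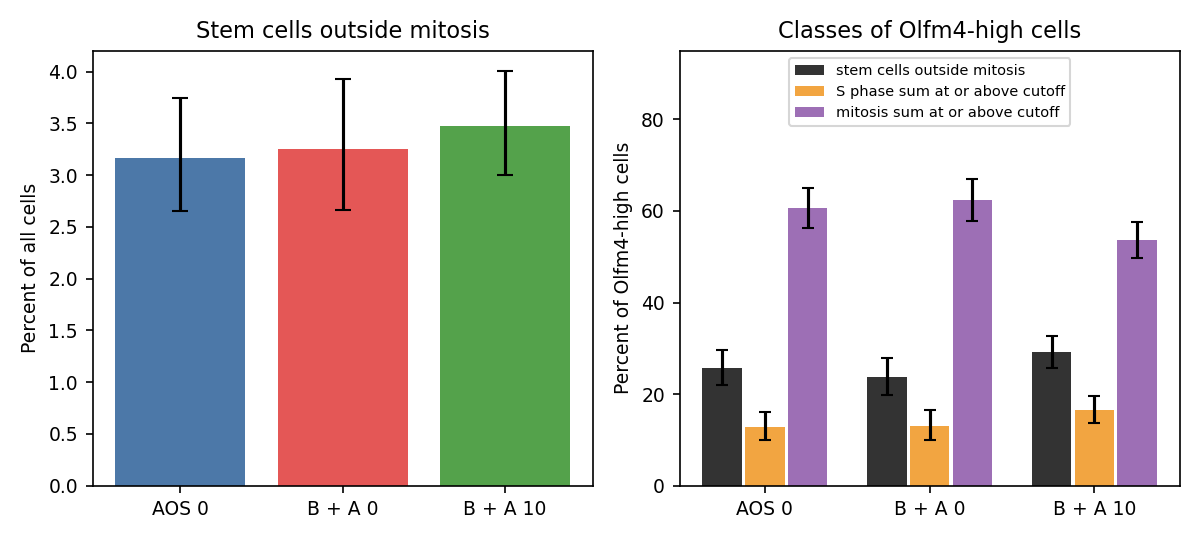
Percent of all cells that were stem cells outside mitosis (left) and percent of Olfm4-high cells in each cycle class (right) by library, with exact binomial 95% intervals as error bars. The left bars lie between 3.17% and 3.48% with overlapping intervals, and on the right the share in mitosis is lowest in B + A 10 at 53.7%.

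The label of stem cell was checked on 5 markers that the cutoffs did not use: Lgr5, Ascl2, Smoc2 (a secreted matrix protein of the stem cell zone), Slc12a2 (the basolateral sodium-potassium-chloride cotransporter) and Cdca7 (a chromatin protein of cycling crypt cells). Every stem cell outside mitosis had a UMI of at least 1 of the 5, and 60% had UMIs of 3 or more, against 0.158% of the reference enterocytes. Of the other Olfm4-high cells 63.1% had UMIs of 3 or more. None of the 5 was past 1.5-fold in all libraries against those cells. The mean Lgr5 level was 1.04, 0.580 and 0.796 UMIs per 10000, while cells with Olfm4 below 20 had 0.00957, 0.0249 and 0.0131. Slc12a2 had means of 9.69, 7.70 and 8.04 against 0.830, 0.922 and 0.799 in those cells. The markers thus set the stem cells outside mitosis apart from cells with Olfm4 below 20 in each library, but not from the other Olfm4-high cells. Because the same cells were chosen on Olfm4, these contrasts are descriptions.

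At equal depth the detection of single markers was sparse. After thinning to 1000 UMIs, Lgr5 had a UMI in 9 of 130, 8 of 104 and 9 of 186 stem cells outside mitosis (6.92%, 7.69% and 4.84%). At 2000 UMIs these shares were 23.1%, 12.5% and 11.8%, and unthinned 43.1%, 29.8% and 21.5%, with AOS 0 highest at both depths. The order at 1000 UMIs was another, but the intervals there overlap (3.21 to 12.7, 3.38 to 14.6 and 2.24 to 8.99). No reference enterocyte thinned to 1000 UMIs had an Lgr5 UMI (0 of 2530). If a count of 0 is taken to allow 3, a share of up to 0.119% is allowed. The unthinned medians were 4853 UMIs in the stem cells and 4121.5 in the enterocytes. Slc12a2 had a UMI in 63.8%, 56.7% and 57.0% after thinning, against 1.23% of the enterocytes. None of the 5 markers was seen in 106 of the 420 thinned stem cells (25.2%), as against 97.6% of the thinned enterocytes, so a zero for 1 marker in 1 cell says little.

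**Figure D2:**
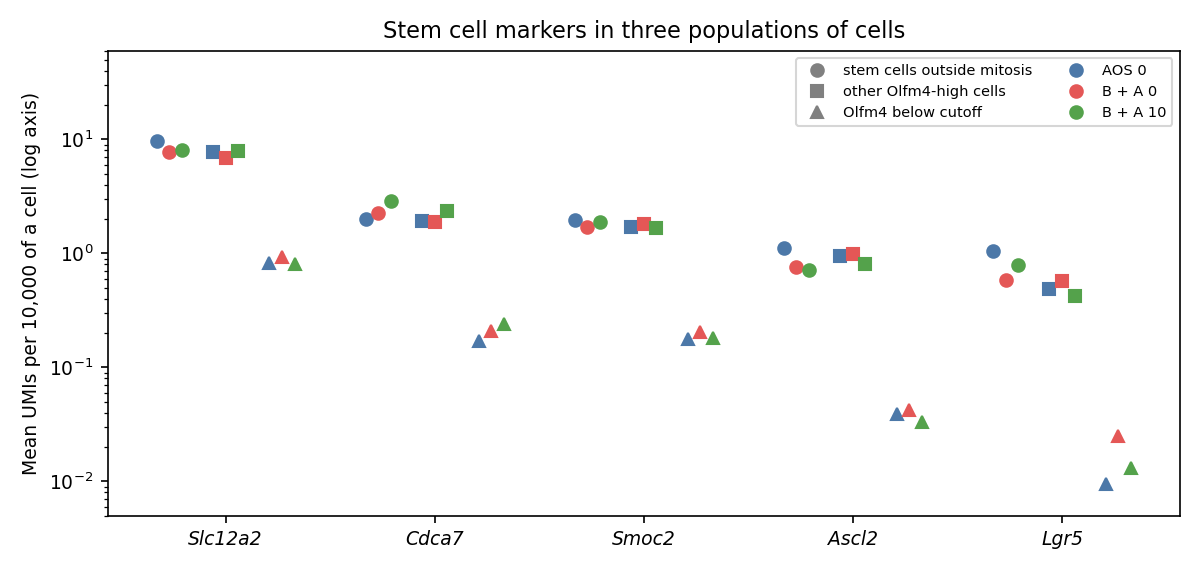
Mean UMIs per 10000 (log axis) of 5 stem cell markers in stem cells outside mitosis (circles), the other Olfm4-high cells (squares) and cells with Olfm4 below 20 (triangles), by library. Both Olfm4-high classes lie close together for each marker and far above the cells with low Olfm4, as for Slc12a2 at 9.69 and 7.80 against 0.830 in AOS 0.

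Stem cells outside mitosis in which Lgr5 was seen did not differ much in depth from the rest. There were 56, 31 and 40 such cells, with median UMIs of 5784.5, 6097 and 2999.5 against 6312.5, 5695 and 3202 without Lgr5. Mean Ascl2 was higher with Lgr5 in each library, at 1.67 UMIs per 10000 against 0.714, 0.838 against 0.726 and 0.984 against 0.637. Smoc2 and Slc12a2 were also higher with Lgr5 in each library. Cdca7 and the Wnt target Axin2 were not in B + A 10, at 2.88 against 2.89 and 1.17 against 1.29. Cd74, of MHC class II, was not in B + A 0, at 15.8 against 18.0. None of these differences was tested. Fabp1, a fatty acid carrier of enterocytes, was lower with Lgr5, at 4.47 against 7.91, 6.64 against 13.2 and 6.71 against 12.7.

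Against cells with Olfm4 below 20, 353 of 992 genes with at least 300 UMIs in the stem cells outside mitosis (35.6%) were past 1.5-fold higher in all 3 libraries and 98 (9.88%) were past 1.5-fold lower. Because the minimum was set on the stem cells outside mitosis alone, it favours genes that are high in them, and these counts are descriptions. Leading the higher genes were Cdca7 (median log2 ratio of the libraries 3.55), the Wnt target and hyaluronan receptor Cd44 (3.41), Smoc2 (3.39), Slc12a2 (3.33), the G1 kinase Cdk6 (3.31), the actin-binding calponin Cnn3 (3.27), the chloride channel accessory gene Clca3b (3.26) and the crypt transcription factor Sox9 (2.84). Next came Amica1, a junction molecule of the immunoglobulin family (2.71), Ifitm3, a membrane protein of antiviral defence that is also a crypt gene (2.55), Stmn1, a destabiliser of microtubules (2.55), Impdh2 of guanine nucleotide synthesis (2.54), the progenitor transcription factor Myb (2.39), the BMP co-receptor Rgmb (2.31) and the DNA repair enzyme Apex1 (2.27). Except for Cdca7, Smoc2 and Slc12a2 these genes had not been named as markers for the label.

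Several gene lists stood high in the stem cells outside mitosis. Among genes with at least 100 UMIs in these cells, where 30.4% of 2794 were past 1.5-fold higher and 10.4% past it lower, 17 of 18 genes of a stem cell signature were higher, with 20 of 22 genes of translation and ribosome assembly, 21 of 23 genes of chromatin and growth and 5 of 6 genes of antigen presentation by MHC class II. All 12 enterocyte markers, all 13 goblet cell markers and all 6 Paneth cell markers with that many UMIs were lower, the last of these lists holding alpha-defensins that the cutoffs used. Interferon response genes were more often lower (7) than higher (2) of 16. Ribosomal protein genes took 29.4%, 30.2% and 30.1% of the UMIs, compared with 13.1%, 12.5% and 13.5% in cells with Olfm4 below 20 and 4.20%, 5.54% and 4.41% in the reference enterocytes.

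Few genes separated the stem cells outside mitosis from the other Olfm4-high cells, which were mostly in mitosis by their mitosis sum. Of 992 genes 2 (0.202%) were past 1.5-fold higher in all libraries, the goblet cell lectin gene Zg16 (median log2 ratio 0.73) and the growth factor gene Pdgfa (0.71), and 7 (0.706%) were lower. The 7 were cell cycle or cytoskeletal genes except for Arl6ip1, which shapes the endoplasmic reticulum: the replication clamp partner 2810417H13Rik (−1.48), the chromatin protein gene Hmgb2 (−1.36), Ube2s of the anaphase complex (−1.35), the tubulin genes Tubb4b (−1.28), Tuba1b (−1.05) and Tubb5 (−0.75), and Arl6ip1 (−0.999). The richest cell of each library held 61.3%, 38.6% and 20.6% of the Zg16 UMIs of the stem cells outside mitosis. Without the cells with the top 5% of doublet scores no gene was higher and 7 were lower of 931. Against Olfm4-high cells in S phase alone, 4 genes (0.403%) were higher and 2 (0.202%) lower, and against those in mitosis alone 2 were higher and 8 (0.806%) lower. Among genes with at least 100 UMIs, of which 6 (0.215%) were higher and 21 (0.752%) lower than in the other Olfm4-high cells, 5 of 5 genes of G2 and mitosis were lower. None of 18 stem cell signature genes was past 1.5-fold in either direction in all libraries, and the ribosomal share of 27.3%, 28.1% and 29.2% was close to that of the stem cells outside mitosis.

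Among cycle genes that the cutoffs did not use, those of mitosis were lower than in Olfm4-high cells in mitosis. Compared with cells with Olfm4 below 20, mitosis genes were lower in AOS 0 alone, and replication genes were higher in each library. The summed level of 30 S phase genes, among them the Mcm helicase genes and thymidylate synthase, had medians of 14.8, 16.6 and 15.5 UMIs per 10000. In Olfm4-high cells with an S phase sum at or above the cutoff these medians were 29.9, 26.6 and 25.6, and in cells with Olfm4 below 20 they were 2.11, 2.14 and 2.26. The stem cells outside mitosis therefore lay between these classes.

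For 32 genes of G2 and mitosis the medians were 5.05, 6.56 and 8.32 in the stem cells outside mitosis, against 32.7, 28.3 and 25.5 in Olfm4-high cells in mitosis. The reference enterocytes had 4.72, 5.85 and 4.37. Summed over the list, B + A 10 was higher than AOS 0 by a log2 ratio of 0.57 (0.41 to 0.73), while the other Olfm4-high cells had −0.34. With cells chosen after thinning to 2000 UMIs the ratio was 0.23, so it moved with the depth at which the cutoffs were applied. Mki67, the proliferation marker Ki-67, had a UMI in 1 of 130, 0 of 104 and 5 of 186 thinned stem cells outside mitosis (0.769%, 0% and 2.69%), against 7.18%, 6.85% and 5.30% of the other Olfm4-high cells and 0.553% of the enterocytes.

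Between the libraries, most of the expression of the stem cells outside mitosis was alike. Of 2024 genes with at least 100 UMIs in AOS 0 and B + A 0 together, 118 (5.83%) were past 1.5-fold in B + A 0 relative to AOS 0, 49 of them higher (2.42%) and 69 lower (3.41%). The counts were 86 of 1789 (4.81%) for B + A 10 relative to B + A 0, with 52 higher (2.91%) and 34 lower (1.9%). They were 222 of 2019 (11%) for B + A 10 relative to AOS 0, with 109 higher (5.4%) and 113 lower (5.6%). The median log2 ratios over these genes were −0.05, −0.01 and −0.07. The comparisons share libraries and are therefore given side by side below, as levels in UMIs per 1000000 and as log2 ratios. The shares of all genes given here are the background of every count of list genes past 1.5-fold below.

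Of 31 gene lists with at least 100 UMIs, 26, 26 and 22 had a summed log2 ratio within 0.3 of 0 in B + A 0 to AOS 0, B + A 10 to B + A 0 and B + A 10 to AOS 0. Past 1.5-fold were the goblet cell markers in B + A 0 to AOS 0, the enteroendocrine markers in B + A 10 to B + A 0, and both lists in B + A 10 to AOS 0. These are markers of other cells and are taken up below. No list of stem cell, Wnt, Notch, p53 target, DNA repair, apoptosis, regeneration or metabolic genes was past 1.5-fold in any of the comparisons.

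**Figure D3:**
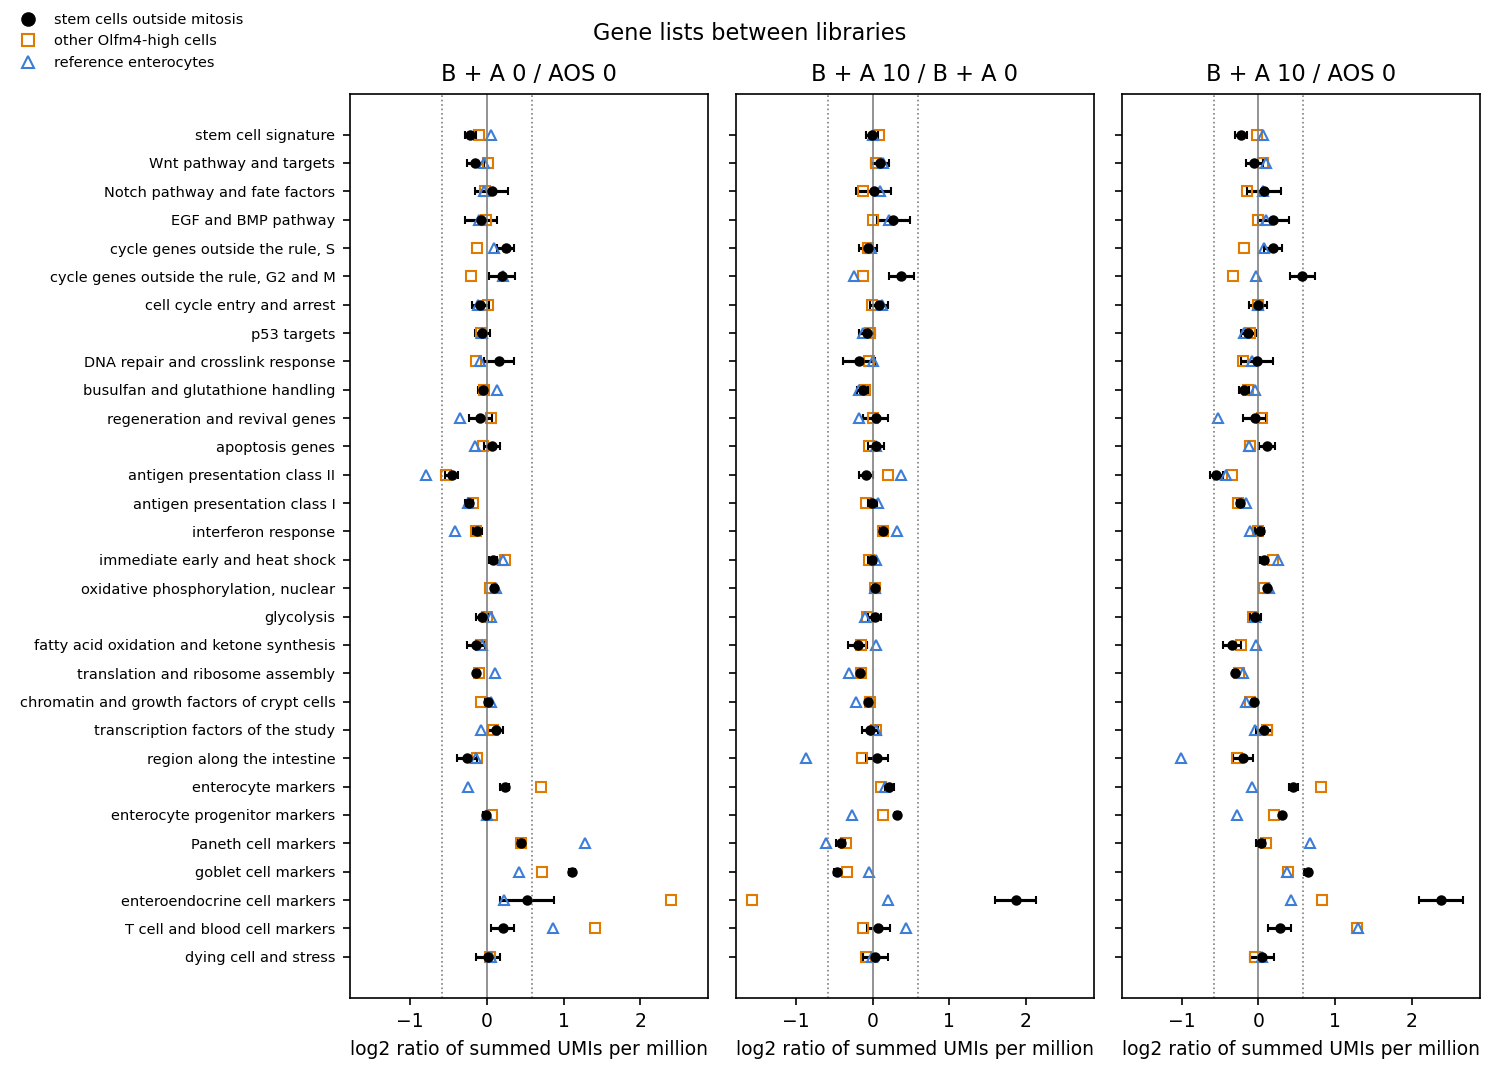
Log2 ratio of the summed UMIs per 1000000 of each gene list between libraries, for stem cells outside mitosis (black, with 95% counting intervals), the other Olfm4-high cells (squares) and the reference enterocytes (triangles). Dotted lines mark 1.5-fold. Most black points lie within 0.3 of 0, the class II list is at −0.46 and −0.55 relative to AOS 0, and goblet and enteroendocrine markers lie farthest out.

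As a whole the stem cell signature was slightly lower in both busulfan libraries. It summed to 4456, 3830 and 3807 UMIs per 1000000, a log2 ratio of −0.22 (−0.29 to −0.15) for B + A 0 and −0.23 (−0.30 to −0.15) for B + A 10, both relative to AOS 0. In B + A 0, 0 of 14 genes were past 1.5-fold higher and 2 lower, and in B + A 10, 0 were higher and 3 lower. Of all genes 3.41% and 5.6% were lower in these comparisons. Between B + A 10 and B + A 0 none of 11 genes of the signature was past 1.5-fold. The other Olfm4-high cells had summed ratios of −0.10 and −0.02 relative to AOS 0. Within each library the signature was higher in cells with more Olfm4. An Olfm4 level of 80 or more was seen in 38 of 130, 11 of 104 and 14 of 186 stem cells outside mitosis. The part of Olfm4 in these ratios was not tested.

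Lgr5 had 73, 37 and 45 UMIs in the stem cells outside mitosis, or levels of 87.2, 52.7 and 65.3. Its log2 ratio was −0.73 (−1.34 to −0.14) in B + A 0, −0.42 (−0.99 to 0.14) in B + A 10 relative to AOS 0, and 0.31 (−0.35 to 0.98) in B + A 10 relative to B + A 0. Its level was highest in AOS 0, but only the ratio of B + A 0 to AOS 0 had an interval clear of 0. With cells chosen after thinning the ratio of B + A 10 to AOS 0 was −0.20. In the other Olfm4-high cells the Lgr5 level was 43.0, 46.5 and 40.2, so AOS 0 was not highest there.

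Ascl2 had levels of 104, 75.5 and 66.8 and log2 ratios of −0.46 (−0.98 to 0.05) and −0.64 (−1.19 to −0.11) relative to AOS 0. Slc12a2, with far more UMIs, had 892, 735 and 746 and ratios of −0.28 (−0.44 to −0.12) and −0.26 (−0.42 to −0.09). Both transcripts had their highest level in AOS 0, but the first Ascl2 interval includes 0. Clca3b had 717, 546 and 440 and ratios of −0.39 and −0.70, and the water channel gene Aqp4 had 86.0, 54.1 and 42.1 and ratios of −0.67 (−1.27 to −0.08) and −1.03 (−1.71 to −0.39). These Aqp4 levels rested on 72, 38 and 29 UMIs, and the first ratio lay between −2.13 and −0.18 over the alternatives. With cells chosen after thinning the second Ascl2 ratio was −0.28. Smoc2 at 195, 170 and 170 and the Wnt feedback gene Axin2 at 110, 115 and 129 had intervals of all ratios that include 0. Cdca7 went the other way, at 199, 225 and 287, with a ratio of 0.53 (0.22 to 0.83) in B + A 10 relative to AOS 0.

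As sums, the lists of DNA damage response genes differed little between the libraries, but few of their genes reached 100 UMIs. The p53 target list, in which only 3 genes reached 100 UMIs, summed to 2256, 2159 and 2058 with log2 ratios of −0.06 (−0.16 to 0.03) and −0.13 (−0.23 to −0.03) relative to AOS 0. Perp, a p53 target that is a component of cell junctions, was past 1.5-fold lower in B + A 0 at 107, 59.8 and 75.5 (ratio −0.84, −1.41 to −0.30, in B + A 0), but not with cells chosen after thinning, where the ratio was −0.37. The pro-apoptotic gene Bax had 182, 175 and 154 and Trp53, the gene of p53 itself, 139, 127 and 123, and none of these ratios had an interval clear of 0. Of 41 genes of DNA repair and crosslink response only 1 reached 100 UMIs, and the list summed to 514, 573 and 507, so single repair genes could not be judged at this depth.

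Gstp1, a glutathione transferase, showed the largest shift among the genes of glutathione handling. It had 44, 121 and 125 UMIs, or levels of 52.6, 172 and 181, with log2 ratios of 1.71 (1.21 to 2.25) in B + A 0 and 1.79 (1.28 to 2.32) in B + A 10 relative to AOS 0. Both busulfan libraries lay well above AOS 0 and close to each other (0.07, −0.30 to 0.45). The same step was present in the other Olfm4-high cells at 46.0, 184 and 155 and in the reference enterocytes at 81.9, 338 and 324, so it was not particular to stem cells. Near-identical copies of this gene could share its reads, and which copy was counted is uncertain. It was the gene past 1.5-fold higher of 11 in B + A 0, where 0 were lower, while the list with Gstp1 in it had summed ratios of −0.05 in B + A 0 and −0.18 (−0.25 to −0.12) in B + A 10 relative to AOS 0. The gut glutathione peroxidase gene Gpx2 had 1719, 1637 and 1254.

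Stmn1 was also higher in both busulfan libraries. Its levels were 176, 402 and 302, with log2 ratios of 1.19 (0.90 to 1.49) in B + A 0 and 0.78 (0.47 to 1.10) in B + A 10 relative to AOS 0. The median cell had 1.58, 3.77 and 2.90 UMIs per 10000 and no cell held more than 4.76% of the UMIs, so the shift was spread over cells. In the other Olfm4-high cells Stmn1 had 282, 491 and 469, and in the enterocytes it stayed at 6.28, 6.45 and 5.53. Its B + A 0 ratio was 0.76 with cells chosen after thinning.

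The replication genes Tyms, for thymidylate synthase, and Mcm7, for a helicase subunit, moved in the same direction. Tyms had 39.4, 84.1 and 100 and a ratio of 1.09 (0.45 to 1.75) in B + A 0 relative to AOS 0, but 0.52 with cells chosen after thinning. Mcm7 had 47.8, 101 and 79.8 and a ratio of 1.08 (0.50 to 1.68) in the same comparison. The S phase list as a whole had a summed ratio of 0.24 (0.13 to 0.36) in B + A 0 and 0.18 (0.07 to 0.30) in B + A 10 relative to AOS 0. Past 1.5-fold higher were 2 of 9 and 1 of 6 genes (2.42% and 5.4% of all genes), and none was lower. With cells chosen after thinning the list ratios were 0.08 and −0.04, so the second turned. In the other Olfm4-high cells they were −0.13 and −0.19, and Tyms had 163, 160 and 141.

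Among stress genes, Hsph1, a large heat shock protein gene, had 49.0, 103 and 118 and ratios of 1.07 (0.49 to 1.66) and 1.26 (0.70 to 1.84) relative to AOS 0, and in the other Olfm4-high cells 59.5, 144 and 197. Its B + A 0 ratio was 0.02 with halved cycle cutoffs. The heat shock and immediate early list had summed ratios of 0.08 and 0.07, with 1 of 10 genes past 1.5-fold higher in each. Of all genes 2.42% and 5.4% were. S100a6, a calcium-binding protein gene counted among regeneration genes, had 56.1, 124 and 119, but in B + A 0 1 cell held 43.7% of its UMIs and without cells rich in markers of other cell types its ratio was 0.23.

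**Figure D4:**
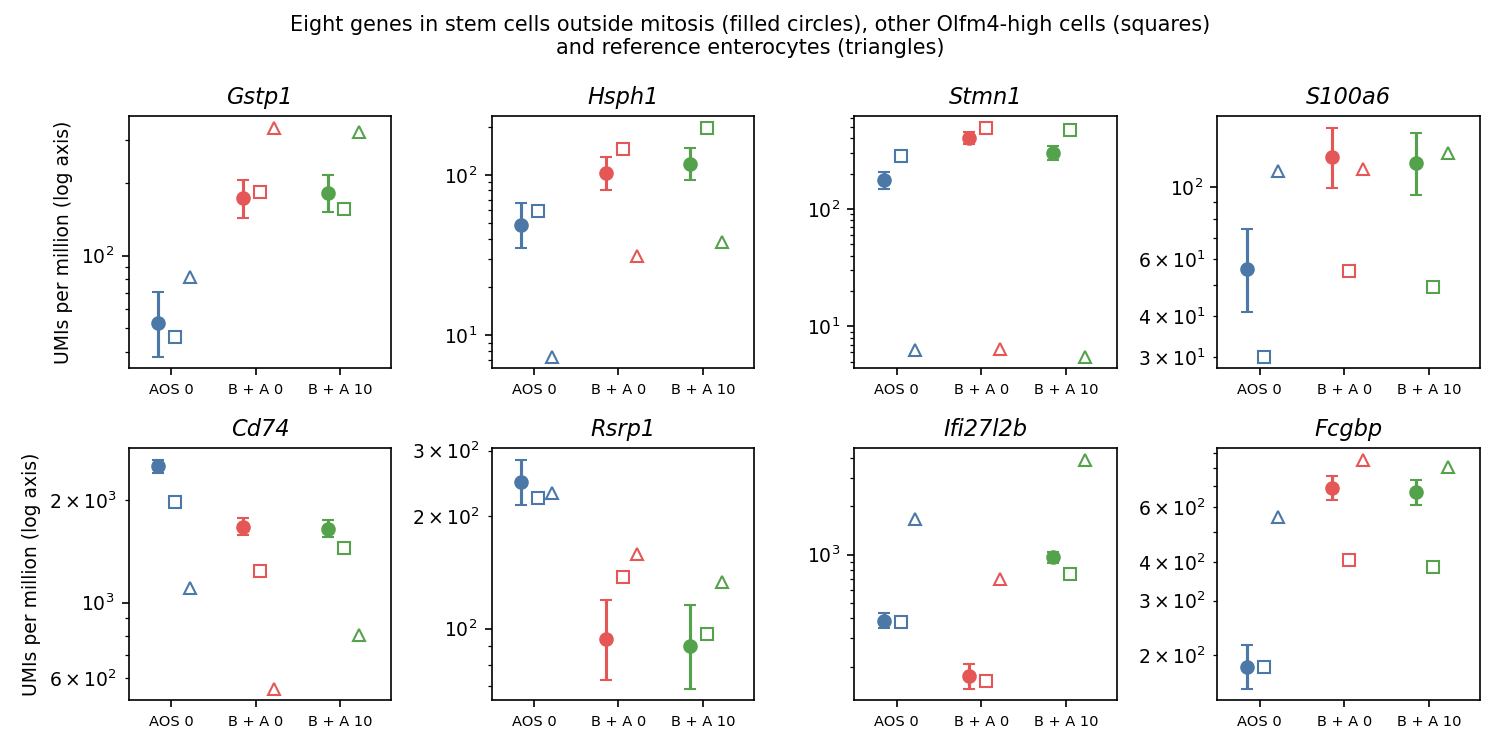
UMIs per 1000000 (log axes that differ between panels and do not start at 0) of 8 genes by library in stem cells outside mitosis (filled, with exact Poisson 95% intervals), the other Olfm4-high cells (squares) and the reference enterocytes (triangles). Gstp1 steps up with busulfan in each class of cells, Stmn1 in both Olfm4-high classes but not in the enterocytes, and Ifi27l2b is lowest in B + A 0 and highest in B + A 10 throughout.

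Antigen presentation by MHC class II, by which cells of the crypt base can display peptides to T cells, was lower in both busulfan libraries. The list summed to 3854, 2801 and 2636, with log2 ratios of −0.46 (−0.54 to −0.38) in B + A 0 and −0.55 (−0.63 to −0.46) in B + A 10 relative to AOS 0, short of 1.5-fold, and −0.09 (−0.18 to 0.00) in B + A 10 relative to B + A 0. Of 6 genes 1 was past 1.5-fold lower in each comparison with AOS 0, where 3.41% and 5.6% of all genes were. That gene was Cd74, the invariant chain that chaperones class II molecules, with 2519, 1674 and 1650 and ratios of −0.59 (−0.69 to −0.49) and −0.61 (−0.72 to −0.51). Its median per cell was 22.7, 15.4 and 13.9 UMIs per 10000.

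The class II chains themselves shifted less. H2-Ab1 had 522, 409 and 356, H2-Aa 365, 311 and 293, and H2-Eb1 182, 194 and 141, so that H2-Eb1 was not lower in B + A 0. Cd74 was lower in B + A 0 in the other Olfm4-high cells as well, at 1975, 1243 and 1445, and in the enterocytes at 1103, 559 and 802. In these classes B + A 10 lay above B + A 0, which was not the case in the stem cells outside mitosis. The difference between classes was not tested.

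Class I genes were slightly lower, with a summed ratio of −0.23 (−0.28 to −0.18) in B + A 0 relative to AOS 0 and 0.00 in B + A 10 relative to B + A 0. The light chain gene B2m had 3590, 2817 and 2811. The nonclassical genes H2-T23 and H2-Q2 went in opposite directions, H2-T23 at 123, 65.5 and 55.2 and H2-Q2 at 54.9, 75.5 and 126. These are members of a gene family of similar sequences whose reads can be split, and their values are uncertain.

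Of the interferon-stimulated genes, the named ones were lowest in B + A 0. Ifit1, which binds foreign RNA, had 70.5, 37.0 and 113, Oasl2, of the oligoadenylate synthetase family, 103, 48.4 and 82.7, and the ubiquitin-like modifier gene Isg15 191, 148 and 283. The log2 ratios of B + A 10 to B + A 0 were 1.61 (0.95 to 2.31), 0.77 (0.13 to 1.43) and 0.93 (0.58 to 1.29). Of the list, 0 of 12 genes were past 1.5-fold higher and 2 lower (3.41% of all genes) in B + A 0 relative to AOS 0. In B + A 10 relative to B + A 0, 3 of 11 were higher (2.91% of all genes) and 0 lower. The sum was dominated by Ifitm3, level at 3694, 3588 and 3600, and its ratios were −0.12 and 0.14.

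Ifi27l2b, an interferon-inducible gene that is also an enterocyte progenitor marker, differed between all 3 libraries. Its levels were 387, 175 and 962, with log2 ratios of −1.14 (−1.45 to −0.84) in B + A 0 relative to AOS 0 and 2.46 (2.18 to 2.75) in B + A 10 relative to B + A 0. The median stem cell outside mitosis had 2.78, 1.33 and 7.90 UMIs per 10000. The order of the libraries was the same in the other Olfm4-high cells at 381, 163 and 759 and in the reference enterocytes, where the ratios were −1.23 and 2.47.

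Oxidative phosphorylation was nearly level. None of 50 nuclear genes of oxidative phosphorylation was past 1.5-fold in B + A 0 relative to AOS 0, and the summed ratios were 0.09 and 0.12 relative to AOS 0. Among them, the ATP synthase subunit gene Atp5k, was higher in B + A 10, at 436, 563 and 881. Fatty acid oxidation had 3 of 10 genes past 1.5-fold lower (3.41% of all genes) and 0 higher (2.42%) in B + A 0. Among the lower genes were Etfa, an electron carrier subunit, at 251, 167 and 155 and Hadhb, of the mitochondrial trifunctional protein, at 117, 74.1 and 71.1. This list had summed ratios of −0.15 (−0.26 to −0.03) in B + A 0 and −0.34 (−0.46 to −0.22) in B + A 10 relative to AOS 0. Genes of translation and ribosome assembly had summed ratios of −0.14 and −0.30 relative to AOS 0. Past 1.5-fold were 0 of 21 in B + A 0, and 2 of 21 were lower in B + A 10 (5.6% of all genes).

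Among the genes that were lowest relative to AOS 0, Rsrp1, which encodes a protein rich in arginine and serine, had 247, 94.0 and 90.0 and ratios of −1.39 (−1.82 to −0.99) and −1.46 (−1.89 to −1.04). It was also lower in the other Olfm4-high cells at 224, 137 and 96.6 and in the enterocytes at 231, 158 and 133. Isyna1, of inositol synthesis, had 176, 96.9 and 122, and Otc, the urea cycle enzyme ornithine transcarbamylase, 174, 96.9 and 105. The endoplasmic reticulum disulfide isomerase gene Pdia3 had 393, 251 and 209.

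The genes that were highest in B + A 10 belong to several cell functions. Actb, cytoplasmic actin, had 1895, 3232 and 3941, a ratio of 1.06 (0.97 to 1.15) relative to AOS 0, and the zinc-binding protein gene Crip1 1030, 1607 and 2106, a ratio of 1.03 (0.91 to 1.16). Spink1, a trypsin inhibitor gene, had 278, 440 and 788, a ratio of 1.5 (1.28 to 1.73). These genes were far more abundant in the reference enterocytes, where Spink1 had 7538, 9549 and 13028, and the part that RNA from other cells had in the stem cell values was not tested.

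RNA of other cell types was present in the stem cells outside mitosis and differed between libraries. The sum of 20 goblet cell markers had a median of 26.2, 59.8 and 58.8 UMIs per 10000, against 32.4, 73.4 and 67.2 in the reference enterocytes, with highest values of 2253, 4393 and 2577. Summed over cells, the goblet list had a log2 ratio of 1.11 (1.07 to 1.15) in B + A 0 relative to AOS 0. Of its genes 9 of 13 were past 1.5-fold higher (2.42% of all genes) and 0 lower (3.41%). Named by their ratio were Clca1, a secreted protein of mucus (1.94), the mucus protein gene Fcgbp (1.92), the mucin gene Muc2 (1.66), the trefoil factor gene Tff3 (1.41) and Zg16 (1.38). For T cell and blood cell markers the medians were 1.29, 5.16 and 6.61 in the stem cells outside mitosis and 1.26, 5.87 and 7.22 in the enterocytes. For Paneth markers they were 29.5, 54.8 and 40.6 against 24.1, 56.7 and 37.1, and Mptx2, a pentraxin gene of Paneth cells, had levels of 205, 134 and 58.1 in the stem cells outside mitosis. The medians of these lists thus moved alike in the enterocytes, a cell type that should lack these transcripts. The summed ratios of B + A 0 to AOS 0 were less alike. In the stem cells outside mitosis and then the enterocytes, they were 1.11 and 0.41 for goblet markers and 0.45 and 1.28 for Paneth markers. For T cell and blood cell markers they were 0.20 and 0.87. The part of such RNA in the differences was not tested.

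Some single cells carried much of such RNA. In Tff3, the richest cell of each library held 46.8%, 35.0% and 25.8% of the UMIs. The enteroendocrine difference was mostly 1 cell of B + A 10, which had 672 UMIs per 10000 of these markers where the next had 75.01, and which held 162 of the 164 UMIs of Gcg (the glucagon gene) and 126 of the 144 UMIs of Cck (the cholecystokinin gene). Tuft cell markers had 51, 14 and 5 UMIs and stromal and endothelial markers 3, 1 and 1 in all.

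Leaving out 53 cells rich in markers of other cells (13, 12 and 28 in the libraries), a choice made after seeing the data, the goblet ratio in B + A 0 relative to AOS 0 was 1.00 and the enteroendocrine ratio of B + A 10 to B + A 0 was 0.03. Without these cells, the stem cell results were close to those of all stem cells outside mitosis. The ratios in B + A 0 relative to AOS 0 were −0.19 for the stem cell signature, −0.50 for class II, 1.74 for Gstp1, 1.13 for Stmn1 and −0.98 for Ifi27l2b.

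Finally the stem cells outside mitosis were compared along the level of Olfm4 itself, in bins of 20 to 40, 40 to 80 and 80 or more UMIs per 10000. From the lowest to the top bin there were 32, 60 and 38 AOS 0 cells, 36, 57 and 11 B + A 0 cells, and 77, 95 and 14 B + A 10 cells, and cells with more Olfm4 were shallower, with medians of 7255, 6190 and 4886.5 UMIs in AOS 0. Mean Lgr5 was higher in each further bin, at 0.119, 1.13 and 1.68 UMIs per 10000 in AOS 0. The B + A 0 means were 0.345, 0.613 and 1.18 and the B + A 10 means 0.441, 1.03 and 1.18. Clca3b and the stem cell signature showed the same order in every library. The signature, which holds Lgr5, had 31.7, 31.7 and 33.9 in the lowest bin of the libraries and 58.9, 49.9 and 53.5 in the top bin. For Clca3b the lowest bin had 5.08, 3.57 and 3.07 and the top bin 9.73, 8.31 and 6.71.

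Class II genes were also highest in the top bin, with 24.7, 41.9 and 50.9 along the bins of AOS 0, 28.3, 27.4 and 41.5 along those of B + A 0, and 26.1, 25.8 and 43.4 along those of B + A 10. The busulfan libraries were below AOS 0 in the middle and top bins and slightly above it in the lowest bin. Goblet markers had means of 145, 321 and 157 in the lowest bin and 32.2, 59.7 and 59.3 in the top bin, but medians of 29.3, 57.9 and 55.4 against 28.6, 57.3 and 58.9, so that a few rich cells carried the means of the lowest bin. The S phase list averaged 18.4, 19.1 and 15.4 in the lowest bin and 12.5, 15.1 and 12.5 in the top bin.

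**Figure D5:**
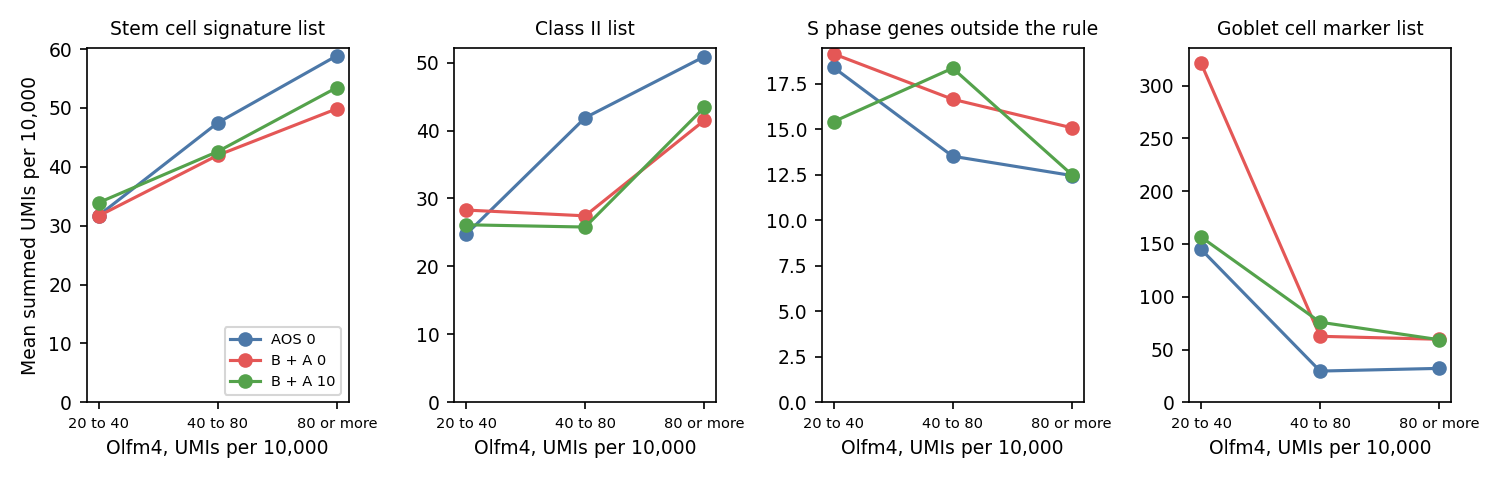
Mean summed UMIs per 10000 of 4 gene lists in stem cells outside mitosis by bin of Olfm4 (UMIs per 10000), 1 line per library. The stem cell signature is higher in each further bin of every library, class II is higher in AOS 0 in the middle bin (41.9 against 27.4 and 25.8), and the mean of the goblet markers is highest in the lowest bin, where a few cells carry it. The top bin held 38, 11 and 14 cells.

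Across single cells, Spearman's rho with Olfm4 was computed within each library for 318 genes with at least 1000 UMIs. It is given as the median of the libraries, over 130, 104 and 186 cells that are not independent samples. Cells of the same library differed in depth, and those with more Olfm4 were shallower. The median over genes was 0.016. Among the most positive were genes of the ribosome and of translation, Rpl3 (0.37), Rps4x (0.32), Rps18 (0.27), the elongation factor gene Eef2 (0.26) and Rps24 (0.26), with Clca3b (0.33) and the tetraspanin gene Cd81 (0.26). The most negative were the galectin-family gene Lgals2 (−0.33), the histone variant gene H2afz (−0.27), Pfn1 of actin dynamics (−0.24), the calcium-binding protein gene S100a10 (−0.22), the RNA-binding protein gene Hnrnpab (−0.21), Crip1 (−0.21), the mitochondrial gene Chchd2 (−0.20) and the dynein light chain gene Dynll1 (−0.20). In the shallower B + A 10 library Rpl3 had 0.23, Rps24 −0.010 and Lgals2 −0.17.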

How the data were processed

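Dissociated small intestinal cells were sequenced on the 10x 3′ v2 platform, 1 library per group. The authors ran Cell Ranger 2.2.0 on mm10 with a forced cell number, removed cells with fewer than 200 genes and genes in fewer than 3 cells, and deposited natural log values, ln(x + 1) with x in UMIs per 10000 of a cell, for 13891 genes and 12653 cells. Whole UMIs were recovered from these deposited values (100% whole within 0.01 UMI). The stem cells outside mitosis (members) and the gene lists were chosen with earlier results of these data known. Sums of UMIs over the members of a library were divided by all their UMIs and given per 1000000. A forced cell number can keep shallow barcodes, and no removal of free RNA is stated. Doublets were kept, since the automatic threshold of Scrublet (through scanpy 1.11.5, 30 components) called only 7, 4 and 4 cells. Cells were thinned to 1000 or 2000 UMIs to compare shares.

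Intervals were exact binomial (shares, and ratios of UMIs), exact Poisson (levels) or Newcombe's (differences), at 95%. A gene was counted past 1.5-fold from 100 UMIs in the members of both libraries together, or, against other cells, from 100 or 300 UMIs in the members alone. Named genes were drawn from the markers, up to 4 genes of each list, the 8 highest and 8 lowest ratios of libraries (200 UMIs), the 15 highest and up to 10 of each direction against other cells (300 UMIs) and the 8 most positive and negative rho. Not every gene so drawn is named, and 1 is not reported here. The scripts were tested on simulated data. Alternatives were other UMI minimums, scalings, cutoffs, thinning, removal of high doublet scores and, after seeing the data, removal of members rich in other markers and members chosen after thinning. Python 3.11.15, numpy 2.4.6, scipy 1.17.1, pandas 2.3.3 and matplotlib 3.10.9 were used.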

Additional observations from a re-analysis of the deposited data

How the results depend on the processing

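No paired analysis was possible because each group is 1 library, and for the same reason no replicate could be left out. Counting error, pooled mice and the low depth of B + A 10 limit every comparison, and genes under 100 UMIs in a comparison were not counted. Shares of stem cells outside mitosis are for the AOS 0, B + A 0, then B + A 10 libraries. They were 2.39%, 2.13% and 2.04% with an Olfm4 cutoff of 40, 6.16%, 7.36% and 7.04% with doubled cycle cutoffs (where B + A 0 minus AOS 0 was 1.19 points, 0.038 to 2.38), 1.29%, 0.970% and 1.21% with these halved, and 2.12%, 2.10% and 2.32% after thinning to 2000 UMIs. The B + A 10 share was 4.15% with an Olfm4 cutoff of 10 and 2.95% without members rich in other markers.

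Counts of genes past 1.5-fold are for B + A 0 to AOS 0, B + A 10 to B + A 0 and B + A 10 to AOS 0, where 118, 86 and 222 were reported. They were 25, 16 and 62 with at least 300 UMIs, 3467, 3446 and 3735 with no minimum, 45, 40 and 99 in thinned members and 51, 42 and 101 with halved cycle cutoffs. With an Olfm4 cutoff of 40 the latter pair of comparisons gave 41 and 128. Fewer or more genes were tested in each of these. The number of lists past 1.5-fold in B + A 0 to AOS 0 was 2 instead of 1 with means of UMIs per 10000 and in thinned members. In B + A 10 to B + A 0 it was 2 instead of 1 with scaling without ribosomal, defensin and hemoglobin genes and with members chosen after thinning, which gave 4 instead of 2 in B + A 10 to AOS 0. Without members rich in other markers it was 5, 0 and 5, the added lists being other-cell markers and, in B + A 10 to AOS 0, the G2 and mitosis list.

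After thinning to 2000 UMIs, with 390 genes tested, 169 were higher and 39 lower than in cells with Olfm4 below 20, and 1 higher and 2 lower than in the other Olfm4-high cells. Without high doublet scores 0 were higher. The share with an Lgr5 UMI was 23.1% in AOS 0 and 11.8% in B + A 10 at 2000 UMIs. Sign changes were seen for Cck in B + A 0 to AOS 0 (−0.68 in thinned members and −1.45 with halved cycle cutoffs), Reg1 in the same comparison (−0.47 with members chosen after thinning) and Zg16 in B + A 10 to B + A 0 (0.18 with an Olfm4 cutoff of 40). Among lists, members chosen after thinning turned the goblet markers in B + A 10 to B + A 0 (−0.47 to 0.10), the enteroendocrine markers in B + A 0 to AOS 0 (0.52 to −0.47) and the S phase genes in B + A 10 to AOS 0 (0.18 to −0.04), and Tyms in B + A 10 to B + A 0 (0.25 to −0.26). Other values changed sign too. Hadhb relative to AOS 0 was −0.40 in B + A 0 and −0.15 in B + A 10 at its nearest to 0, and Mcm7 was 0.16 in B + A 10. The cause was not tested. Of the other values for named genes 1304 moved by less than their counting interval and 166 by more, and for lists 367 and 98. The 1304 include 135 values with at least 300 UMIs and 135 with no minimum, settings that cannot change a gene's ratio. The changes of scaling shift nearly all genes by 1 constant. The 1304 is therefore no measure of stability.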
